A study of Homo sapiens with 6 samples.

Results

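The genes described here make up the pathway by which a cell senses double-stranded RNA. They were chosen by name, as a list of 10 members out of 28307 gene symbols in the deposited tables: RIGI (written DDX58 there), IFIH1, DHX58, TLR3, EIF2AK2, ADAR, MAVS, TRIM25, TBK1 and IRF3. All 10 were found, and 8 of them reached the mean level of 1 TPM (transcripts per 1000000 transcripts, a level corrected for transcript length) that was required for a test. The cells were SW480, an established human colon adenocarcinoma line. One group carried pLENTI CMV Clover, a lentiviral construct for a fluorescent protein (control, n = 3 libraries), and the other carried pLENTI CMV Z18trunc, a construct for a shortened form of the RNA surveillance factor ZC3H18 (n = 3 libraries). Both constructs are driven by the CMV promoter, both groups went through lentiviral transduction and puromycin selection, and per the study's methods the lines were made in triplicate. No edit of the cells' own ZC3H18 gene is described for these lines, so Z18trunc is a model of overexpression. Because the study asks whether RNA from repeats accumulates with Z18trunc, the comparison here asks whether the genes that sense such RNA differ between the groups.

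RIG-I (RIGI) and MDA5 (IFIH1) are helicases of the cytosol that bind double-stranded RNA and then assemble MAVS, an adaptor on mitochondria, into filaments. MAVS in turn recruits the kinase TBK1, which phosphorylates the transcription factor IRF3 and so opens transcription of interferon genes. TLR3 senses double-stranded RNA in endosomes, EIF2AK2 encodes the kinase PKR that stops translation on binding it, and ADAR edits adenosines within it and thereby hides the cell's own duplexes from MDA5. In human cells, RNA from transposable elements, above all Alu copies lying head to head within one transcript, is a known source of such duplexes. Several of these genes are themselves induced by interferon through a promoter element, the interferon-stimulated response element.

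Promoter sequences from RefSeq (build GRCh38.p14, 250 bases before to 50 after the gene start) were found for 8 of the 10 members, in 10 entries because ADAR has several. They were searched on both strands for GAAANNGAA, the core of the interferon-stimulated response element. That core lay in 8.11% of all 35116 promoters, and in those of 3 members, IFIH1, EIF2AK2 and TLR3, which are printed below. The levels of all 3 genes were higher in every Z18trunc library, as were those of RIGI, ADAR and TBK1, whose promoters held no match. Of all genes tested, 30.1% were likewise higher in every Z18trunc library. RIGI reached the level required for a test only through its Z18trunc libraries. TLR3 lies below the level required for a test. A link between match and level was not tested. The stretches read 5′ to 3′ on the strand of the gene, with every match in capitals. Positions are counted from the first transcribed base of the RefSeq entry as 1, with no base 0.
IFIH1, chr2:162318808-162318878, minus strand: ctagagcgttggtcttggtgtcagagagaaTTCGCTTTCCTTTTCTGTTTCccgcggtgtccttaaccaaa
IFIH1, chr2:162318677-162318735, minus strand: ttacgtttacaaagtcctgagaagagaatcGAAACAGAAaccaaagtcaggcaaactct
EIF2AK2, chr2:37156958-37157016, minus strand: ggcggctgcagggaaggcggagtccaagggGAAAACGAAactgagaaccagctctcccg
TLR3, chr4:186069123-186069180, plus strand: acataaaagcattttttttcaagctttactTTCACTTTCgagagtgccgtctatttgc
The IFIH1 promoter held 3 matches that overlap one another, from position -164 to -144 and written as the reverse complement TTCNNTTTC, and 1 further match from -21 to -13. The match of EIF2AK2 ran from -6 to 3 and that of TLR3, again as the reverse complement, from -3 to 6. In the deposited gene tables EIF2AK2 starts further upstream, at chr2:37157047, and by that start its match lies within the gene span. The gamma-activated site TTCNNNGAA, which reads the same on both strands and lay in 7.66% of all promoters, was present in TLR3 alone, from -178 to -170 and from -50 to -42. A match of letters is a description of the promoter and does not show that a factor binds there.

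Aligned fragments numbered 18226033 to 22463310 per library. The level of ZC3H18 averaged 57.2 ± 5.39 TPM over the 3 Clover libraries and 763 ± 31.2 TPM (SD) over the 3 Z18trunc libraries, with no overlap, and this value does not separate the construct from the cell's own gene. On log2(TPM + 1), limma called ZC3H18 and RGPD6, 2 of 13300 genes (0.015%), with an adjusted p under 0.05, and the median gene was 0.11 higher in Z18trunc. That shift was -0.01 after quantile normalization and -0.0022 after scaling each library to its median gene, so member values are also given on those scales. Clover replicate 2 stood apart, being the lowest of the 6 libraries for 47.8% of genes tested. Of 9 markers of colon epithelium 7 were expressed, CDX1 and KRT20 being listed at 0 in all libraries. Of 13 markers of blood, stromal, endothelial and pigment cells, the summed level was 4.97 to 5.82 TPM in Clover and 4.21 to 6.18 TPM in Z18trunc, with PTPRC, PECAM1, MLANA and TYR listed at 0 throughout. Among these markers CD14 was 1.42, 1.94 and 1.27 TPM in Clover and 0.845, 0.748 and 0.919 TPM in Z18trunc, lower without overlap (log2 difference -0.46, limma adjusted p = 0.0807). CD14 met the filter of 1 TPM only through its Clover level (means 1.54 TPM in Clover and 0.837 TPM in Z18trunc), so its difference is a description. Of the 3 markers tested it alone was lower without overlap, where 6.73% of all genes tested were. EPCAM, of the epithelial markers, was higher without overlap, at 289 to 319 TPM in Clover and 336 to 375 TPM in Z18trunc (0.22, limma adjusted p = 0.135). The other epithelial markers tested overlapped between the groups, and the median log2 difference of the 7 was -0.04. Of all genes tested, 30.1% were higher without overlap. The part of these markers in the results was not tested. In RNA from a whole culture, fewer cells with a transcript and less of it per cell cannot be told apart.

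The levels of the members covered a wide range of the transcriptome. In Clover, IRF3 stood first at 218 ± 15.7 TPM (SD, n = 3), above 94.2% of genes tested. ADAR (54.2 ± 9.54 TPM) and TRIM25 (47.0 ± 7.37 TPM) came next, and their libraries overlapped. MAVS (33.6 ± 3.98 TPM), EIF2AK2 (15.4 ± 1.53 TPM) and TBK1 (5.77 ± 0.439 TPM) followed without overlap between neighbours. The RNA sensors closed the order, with IFIH1 at 1.36 ± 0.187 TPM, RIGI at 0.711 ± 0.137 TPM, TLR3 at 0.235 ± 0.163 TPM and DHX58 at 0.184 ± 0.152 TPM (SD, n = 3 for each), of which only TLR3 and DHX58 overlapped. SW480 cells held the transcription factor, the adaptor and the 2 effectors at moderate to high levels, and the receptors at levels at which few fragments support a value. The mean coverage per base of RIGI was between 1.43 and 3.47 in the 6 libraries, against 299.7 to 429 for IRF3.

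**Figure D1:**
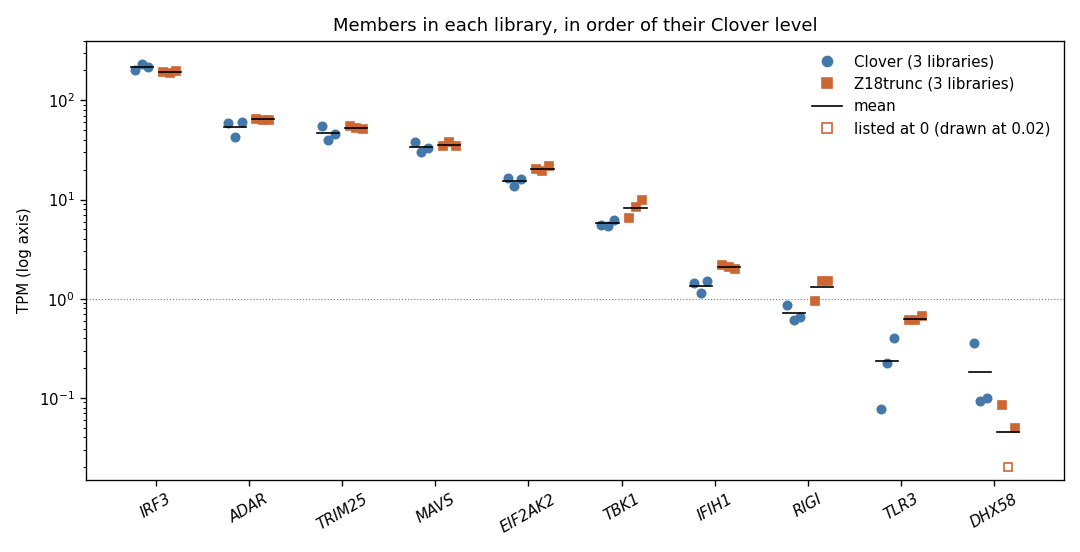
TPM of the 10 members on a log axis, in order of their Clover mean. Circles are the 3 Clover libraries, squares the 3 Z18trunc libraries, bars the group means, the dotted line 1 TPM, and the open square a value listed at 0. The squares lie above the circles for ADAR, EIF2AK2, TBK1, IFIH1, RIGI and TLR3 and below them for IRF3 and DHX58.

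The 2 cytosolic helicases were both higher in Z18trunc, although neither passed the adjustment. RIGI (chr9:32455302-32526196), which recognises short RNA with a 5′ triphosphate, was 0.867, 0.611 and 0.657 TPM in the Clover libraries and 0.939, 1.493 and 1.4997 TPM in the Z18trunc libraries. The groups did not overlap, but Z18trunc replicate 1 lay close to the highest Clover library. RIGI met the filter of a mean of at least 1 TPM only through its Z18trunc level, the group means being 0.711 TPM in Clover and 1.31 TPM in Z18trunc, so its difference within the filtered genes is given as a description. The group mean was 1.84 times that of Clover, with a log2 difference of 0.43 (SE 0.12) that the added 1 TPM makes smaller than the ratio itself, and that was 0.78 with 0.1 TPM added. In the fit without a filter, which RIGI enters whatever its level, the limma adjusted p was 0.131. Quantile normalization left 0.33 and median scaling 0.32.

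IFIH1 (chr2:162267074-162318684), whose product senses long duplexes, was 1.42, 1.15 and 1.504 TPM in Clover and 2.19, 2.10 and 1.99 TPM in Z18trunc. All 3 Z18trunc libraries were above all 3 Clover libraries, and they lay closer together. The mean was 1.54 times that of Clover, and the log2 difference of 0.39 (SE 0.08, 95% interval 0.19 to 0.59, limma adjusted p = 0.0773) was 0.26 after quantile normalization and 0.59 with 0.1 TPM added in place of 1.

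DHX58, encoding LGP2, the third helicase of this family, which lacks the signalling domain, was 0.360, 0.0922 and 0.0999 TPM in Clover and 0.0849, 0 and 0.0498 TPM in Z18trunc (chr17:42101411-42112714). Its order was the reverse of the other 2 helicases, at a level below the test. TLR3 (chr4:186069156-186088073) was 0.0766, 0.224 and 0.403 TPM in Clover and 0.613, 0.611 and 0.665 TPM in Z18trunc. For both genes the groups did not overlap, which fixes the exact two-sided permutation test at p = 0.1, the smallest that 3 against 3 libraries allow. Of genes that reached the test, 30.1% were higher and 6.73% lower without overlap. The share among genes below it was not taken. The coverage per base of DHX58 was between 0 and 0.925 in the 6 libraries. Without the filter on low levels, limma gave adjusted p = 0.117 for TLR3 (log2 difference 0.41, SE 0.10) and 0.381 for DHX58 (-0.17, SE 0.10).

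Among the effectors that bind double-stranded RNA directly, EIF2AK2 had the wider gap between the groups relative to their spread. EIF2AK2 (chr2:37099210-37157047) was 16.4, 13.7 and 16.3 TPM in Clover and 20.3, 19.3 and 21.5 TPM in Z18trunc, so that the lowest Z18trunc library stood well above the highest control. The log2 difference was 0.38 (SE 0.09, 95% interval 0.16 to 0.61, limma adjusted p = 0.0823), or 0.23 after quantile normalization and 0.27 after median scaling. Its last bases overlap the span of GPATCH11 on the other strand by 35 bases.

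ADAR (chr1:154582058-154627997) was 59.0, 43.2 and 60.3 TPM in Clover and 65.2, 63.3 and 64.0 TPM in Z18trunc. The groups did not overlap, but the gap between them was smaller than the spread of the Clover libraries, and the low value of Clover replicate 2 supplied much of the mean difference. The log2 difference of 0.26 (SE 0.13, limma adjusted p = 0.258) was 0.10 without that library. The tables give 1 value per gene, so the constitutive and the interferon-induced isoform of ADAR were not told apart.

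The adaptor and its partners were less uniform. MAVS (chr20:3846799-3876123) was 37.9, 29.96 and 33.0 TPM in Clover and 34.2, 37.9 and 34.5 TPM in Z18trunc, values that interleave. Its log2 difference was 0.08 (SE 0.10, 95% interval -0.16 to 0.33, limma adjusted p = 0.635), and its direction turned with the scaling, to -0.01 after quantile normalization and -0.03 after median scaling. TRIM25 (chr17:56887909-56914049), a ubiquitin ligase that acts with RIG-I, was 54.8, 40.1 and 46.1 TPM in Clover and 55.1, 52.6 and 51.8 TPM in Z18trunc. Clover replicate 1 lay within the Z18trunc range, and the log2 difference was 0.18 (SE 0.12, limma adjusted p = 0.347). It was 0.09 after quantile normalization and 0.08 after median scaling, 0.08 without Clover replicate 2 and 0.30 without Clover replicate 1.

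TBK1 (chr12:64452120-64502113) was 5.60, 5.45 and 6.27 TPM in Clover and 6.45, 8.34 and 9.88 TPM in Z18trunc. No library crossed over, yet the Z18trunc libraries were spread widely, from just above the highest control to well beyond it. The mean was 1.43 times that of Clover, with a log2 difference of 0.43 (SE 0.14, 95% interval 0.09 to 0.77, limma adjusted p = 0.114) and of 0.25 after quantile normalization.

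IRF3 (chr19:49659569-49665875) was the one member tested that was lower in every Z18trunc library. It was 202, 234 and 218 TPM in Clover and 193, 189.9 and 199 TPM in Z18trunc. The log2 difference was -0.16 (SE 0.08, 95% interval -0.35 to 0.02, limma adjusted p = 0.223), and it was -0.17 after quantile normalization and -0.27 after median scaling. Its span shares 734 bases with BCL2L12 on the opposite strand, and how the authors' gene tables used strand is not given in the sources used here.

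Across the 8 members tested, limma called 0 at an adjusted p under 0.05, against 0.015% of all genes. The counts that follow leave out RIGI, which reached the test through its Z18trunc level, and cover the 7 members with at least 1 TPM in both group means. At an unadjusted p under 0.05, 3 were higher (IFIH1, EIF2AK2 and TBK1) and 0 lower, where 25.6% of all genes tested were higher and 2.9% lower. After quantile normalization 2 were higher at that level (IFIH1 and EIF2AK2), against 12.8% of all genes. Without overlap between the groups, 4 of 7 were higher (57.1%, against 30.1% of all genes) and 1 lower (against 6.73%). Without Clover replicate 2, the lowest library for 6 of the 7, 4 were higher and 1 lower, against 32.5% and 11.2% of all genes. Without Clover replicate 1, 6 were higher and 1 lower, against 39.4% and 10.1%. The median log2 difference of the 7 was 0.26, beside 0.11 for all genes tested, and 0.18 beside -0.01 after quantile normalization. No member passed the adjustment under any of the scalings, filters, pseudocounts or left-out libraries tried.

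**Figure D2:**
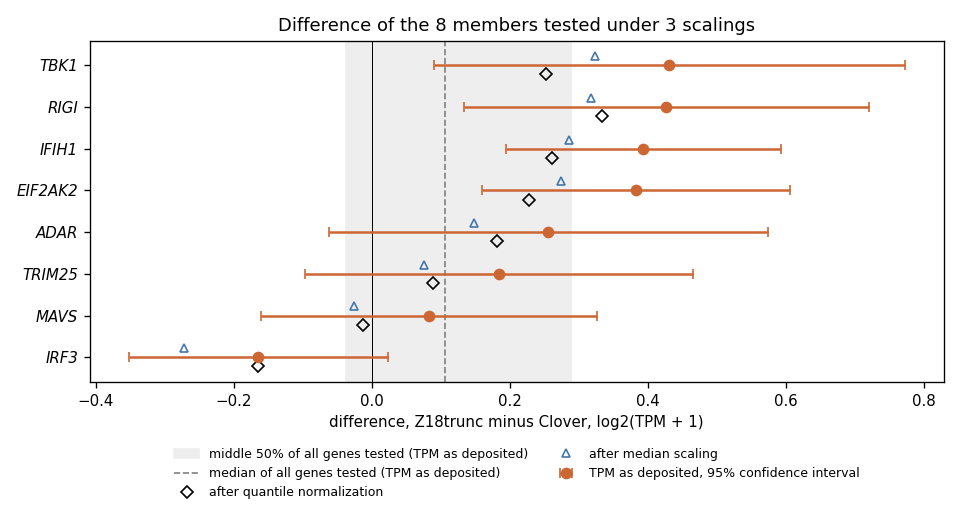
Difference between Z18trunc and Clover on log2(TPM + 1) for the 8 members tested. Filled circles with bars are the values on TPM as deposited with 95% confidence intervals, diamonds the values after quantile normalization, triangles those after median scaling, the dashed line the median of all genes tested (0.11) and the grey band their middle 50%. The band and line hold for TPM as deposited only, the upper quartile of all genes being 0.29 there, 0.15 after quantile normalization and 0.18 after median scaling. TBK1, IFIH1 and EIF2AK2 lie above that quartile on each scale, and IRF3 lies left of 0 on every scale. RIGI also lies above it, but it reached the test through its Z18trunc level, so its place is a description only.

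Ratios within a library do not move when all its TPM values are scaled by a single factor, though quantile normalization can change them. They are given on TPM as deposited and were compared with no test. TBK1 over IRF3, the kinase over its substrate, was -5.18, -5.42 and -5.12 on the log2 scale in Clover and -4.90, -4.51 and -4.33 in Z18trunc. The mean was higher by 0.66, with every Z18trunc library above every control. TRIM25 over RIGI was 6.05 ± 0.08 (SD, n = 3) in Clover and 5.37 ± 0.43 (SD, n = 3) in Z18trunc, again without overlap and widely spread in Z18trunc. TRIM25 by itself overlapped between the groups. RIGI rests on few fragments and reached the filter through its Z18trunc level, so ratios that hold it are descriptions only. IFIH1 over RIGI was 0.94 ± 0.24 and 0.71 ± 0.45 (SD, n = 3 each), and EIF2AK2 over ADAR was -1.80 ± 0.12 and -1.66 ± 0.08 (SD, n = 3 each). Both of these overlapped between the groups.

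The pathway around the members was followed through 9 lists with 100 genes, of which 70 were tested. No gene of these lists passed, the smallest limma adjusted p being 0.0773. Without overlap, 34 (48.6%) were higher and 4 (5.71%) lower, beside the 30.1% and 6.73% of all genes. The median log2 difference was 0.22, beside 0.11 for all genes. After quantile normalization the list medians ran from -0.27 for the other nucleic acid sensors to 0.22 for the eIF2 alpha arm, beside -0.01 for all genes. The lists were chosen with earlier results of these data known, so the shares are a description. These values of all genes are also the measure for the counts and medians of each list below. Since none passed, the 2 genes with the largest difference either way were taken from each list where reported.

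Of 6 genes of the oligoadenylate synthetase branch, whose enzymes are activated on binding double-stranded RNA, 4 were tested and 2 were higher without overlap. OAS2 was 4.44, 3.55 and 3.99 TPM in Clover and 5.02, 5.20 and 5.17 TPM in Z18trunc (log2 difference 0.30, limma adjusted p = 0.0913), and its difference was 0.11 after quantile normalization. The median of the tested genes of the branch was 0.26, and 0.07 after that normalization. ABCE1, an ATPase that recycles ribosomes, differed by 0.35 (adjusted p = 0.176 in limma).

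Among 14 proteins that bind or process double-stranded RNA, all tested, 7 were higher and 1 lower without overlap, with a median of 0.22. DHX9, a helicase that unwinds such RNA, was 55.0, 50.2 and 57.1 TPM in Clover and 75.2, 71.7 and 81.5 TPM in Z18trunc. The groups were far apart (log2 difference 0.49, SE 0.09, limma adjusted p = 0.0773), and 0.41 remained after quantile normalization. CDKN2AIP, which carries a double-stranded RNA binding fold, differed by 0.49 (limma adjusted p = 0.0773) and by 0.30 after quantile normalization.

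Of 14 tested regulators of RIG-I-like receptors and MAVS, 9 were higher without overlap and 0 lower, with a median of 0.27, and 0.11 after quantile normalization. MEX3C, a ubiquitin ligase with RIG-I among its reported targets, was 17.6, 16.3 and 16.4 TPM in Clover and 25.1, 25.3 and 25.1 TPM in Z18trunc. It had the largest difference of all list genes (0.56, SE 0.07, limma adjusted p = 0.0773), and its replicates were nearly level within each group. ITCH, a ligase that targets MAVS, differed by 0.41 (limma adjusted p = 0.0846) and by 0.25 after quantile normalization.

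Of the 19 adaptors and kinases between the receptors and the transcription factors, all tested, 8 were higher and 2 lower without overlap, with a median of 0.20, which was 0.02 after quantile normalization. CHUK, a kinase of the NF-kappaB branch, differed by 0.41 and AZI2, an adaptor of TBK1, by 0.36 (limma adjusted p = 0.0823 and 0.0894), which were 0.23 and 0.21 after quantile normalization. TICAM1, the adaptor of TLR3, was between 22.6 and 24.5 TPM in all 6 libraries.

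The 6 genes of the eIF2 alpha arm, in which PKR is 1 of several kinases for the same substrate, had a median of 0.37 (0.22 after quantile normalization), with 5 higher without overlap. EIF2AK4 (GCN2), the kinase of amino acid shortage, was 16.4, 14.9 and 17.9 TPM in Clover and 24.3, 22.2 and 24.1 TPM in Z18trunc (log2 difference 0.50, limma adjusted p = 0.0773). EIF2AK1, the haem-regulated kinase, was 165, 83.1 and 166 TPM in Clover and 186, 188 and 177 TPM in Z18trunc, so that Clover replicate 2 by itself set most of its difference of 0.47 (limma adjusted p = 0.279).

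At the output of the pathway, the interferons were listed at or near 0. IFNB1 and 6 others of the 9 interferon genes were listed at 0 in all libraries, and the 9 together summed to at most 0.766 TPM in any library. Of 11 early IRF3 targets, 6 were listed at 0 throughout, among them CXCL10, CCL5 and RSAD2, and 1 was tested. That gene, ISG15, was 158, 174 and 155 TPM in Clover and 159, 152 and 155 TPM in Z18trunc (log2 difference -0.06, limma adjusted p = 0.636). IFIT3 was 0.520, 0.368 and 0.714 TPM in Clover and 1.22, 0.901 and 0.610 TPM in Z18trunc, an overlapping pair below the test.

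The receptor side of interferon signalling was expressed, with all 10 genes tested. Of these, 3 were higher without overlap, near the 30.1% of all genes. The median of the 10 was 0.13, near the 0.11 of all genes, and turned to -0.02 after quantile normalization. IFNAR1, a subunit of the type I receptor, differed by 0.45 (limma adjusted p = 0.0835) and by 0.29 after quantile normalization. Of the other nucleic acid sensors, 4 of 9 were listed at 0 and 2 were tested. UNC93B1, the chaperone that carries TLR3 to endosomes, was lower in every Z18trunc library (75.2, 76.9 and 75.5 TPM against 62.6, 66.0 and 61.4 TPM, log2 difference -0.26, limma adjusted p = 0.0841), and STING1 differed by -0.10, and by -0.21 after quantile normalization.

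**Figure D3:**
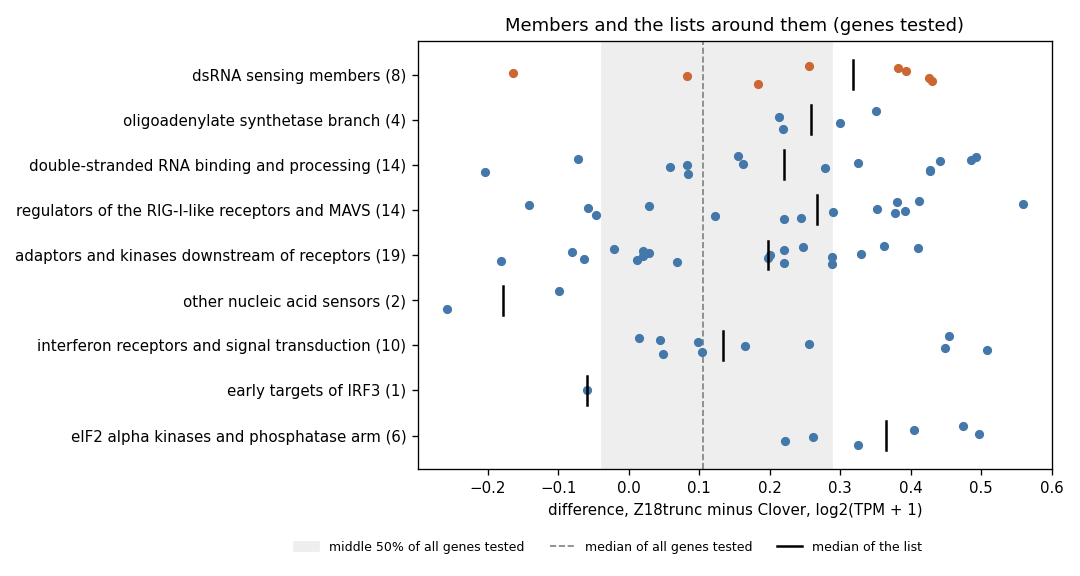
Difference between Z18trunc and Clover on log2(TPM + 1) for the members and for the genes tested in each list around them, 1 point per gene. The number tested stands in parentheses, the upright bars are list medians, the dashed line and the band are the median and the middle 50% of all genes tested. List medians run from -0.18 for the other nucleic acid sensors to 0.37 for the eIF2 alpha arm.

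The members are also carriers of repeats, and the deposited transposable element tables count fragments on each copy and strand. Estimated counts of copies lying wholly inside a member and on its strand were summed, separately for copies that overlap an annotated exon and for copies in introns, and are given as CPM (fragments per 1000000 aligned fragments). These sums draw on the same RNA as TPM and are not an independent sample. The exon sums were examined after the other results had been seen. In exons, repeats of 2 members dominated: MAVS carried 95.8 ± 2.77 CPM and EIF2AK2 30.7 ± 3.64 CPM in Clover (SD, n = 3 each), followed by TRIM25 with 8.10 ± 0.656 CPM. No other member exceeded 1 CPM on exonic repeats in the Clover mean.

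All exonic repeats of MAVS and nearly all of EIF2AK2 lay in the 3′ UTR. The longest annotated 3′ UTR segment of EIF2AK2 (GENCODE 44, hg38) is 8066 bases long, of which 65.2% belong to 17 repeat copies, and that of MAVS is 9979 bases with 51.4% in 22 copies. Both hold Alu copies in opposite orientations, the arrangement from which a transcript can fold back into a duplex. In EIF2AK2, 2 Alu copies ran with the gene and 3 against it, and in MAVS 7 ran with the gene (27.6 CPM in Clover) and 5 against it (15.8 CPM).

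Fragments on the EIF2AK2 repeats rose with Z18trunc. They numbered 31.8, 26.6 and 33.6 CPM in Clover and 37.5, 39.4 and 43.8 CPM in Z18trunc, again with a clear gap between the groups. The log2 difference was 0.39 (SE 0.10, edgeR adjusted p = 0.0188), 1 of 68 genes called among 6380 (1.07%), where the median gene was at 0.16. With TMM scaling, which removes that general shift, the difference was 0.25 and the edgeR adjusted p = 0.265, and with DESeq2 0.25 and 0.142. The call was also lost without Clover replicate 2 (0.30, edgeR adjusted p = 0.180), Z18trunc replicate 2 (0.41, edgeR adjusted p = 0.123) or Z18trunc replicate 3 (0.33, edgeR adjusted p = 0.187).

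The MAVS repeats lay the other way, at 98.6, 95.8 and 93.1 CPM in Clover and 88.1, 92.8 and 85.0 CPM in Z18trunc. All 3 Z18trunc libraries were below all 3 controls, but the difference was small (log2 -0.11, SE 0.08, edgeR adjusted p = 0.555). It was -0.25 with TMM scaling (edgeR adjusted p = 0.198) and -0.26 with DESeq2, where it passed (adjusted p = 0.0465). Over all genes tested, exonic repeat sums were higher without overlap in 14.3% and lower in 4.04%, and at an unadjusted p under 0.05 in edgeR 11.5% were higher. ADAR had few such fragments, 0.356, 0.418 and 0.458 CPM against 1.11, 0.878 and 0.524 CPM (log2 1.03, edgeR adjusted p = 0.272), and its groups did not overlap either. TRIM25 differed by 0.11 (edgeR adjusted p = 0.772).

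**Figure D4:**
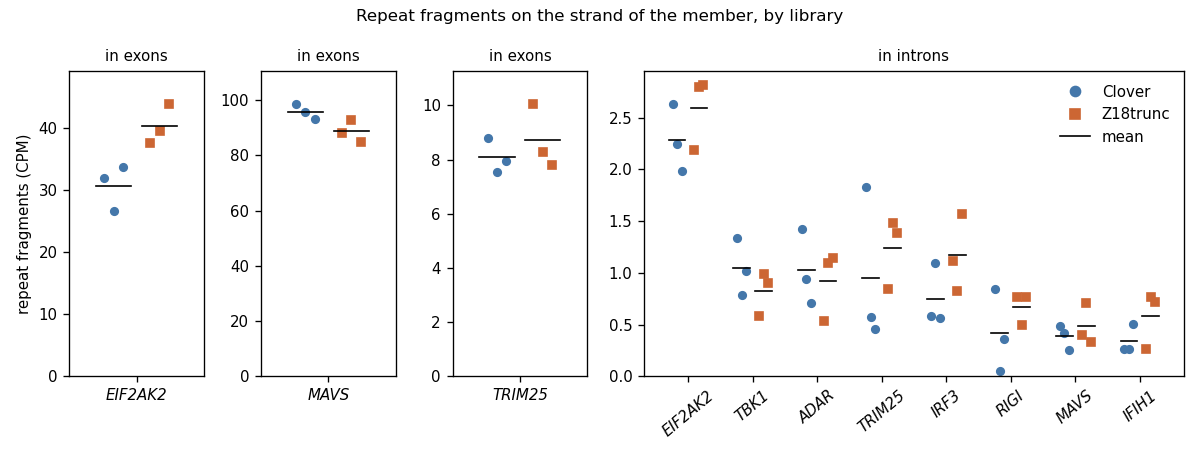
CPM on repeats inside members and on their strand, by library, with separate vertical axes for each panel. The 3 narrow panels show repeats in exons of EIF2AK2, MAVS and TRIM25, the wide panel repeats in introns, and bars are group means. The groups are apart for EIF2AK2 (higher in Z18trunc) and for MAVS (lower) in exons, and overlap for every member in introns.

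Copy by copy the contrast of the 2 genes was broad. In EIF2AK2, all 17 copies of the 3′ UTR had a higher mean in Z18trunc, 7 of them without overlap, where 62.4% of 12001 exonic copies in all genes had a higher mean and 11.4% were higher without overlap. In MAVS, 17 of 22 had a lower mean, 3 without overlap (4.18% of all exonic copies). Copies of one 3′ UTR belong to the same transcript and are not separate observations, and the difference between the genes was not tested. Within a library the TPM of EIF2AK2 over that of MAVS, a ratio added after these values were seen, was -1.12 ± 0.09 in the Clover libraries and -0.80 ± 0.15 in the Z18trunc libraries on the log2 scale (SD, n = 3).

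Single copies that run with the gene were fitted with all such copies of the genome, of which edgeR called 25 of 12453 (0.201%), none of them in a member. Among members 3 had an unadjusted p under 0.05 in edgeR, where 1018 of the 12453 copies were higher and 220 lower at that level. These 3 are therefore named as a description. An L1MC4 fragment of EIF2AK2 (chr2:37104167-37104314), lying between 2 Alu copies, went from 0.442 ± 0.153 to 1.08 ± 0.214 CPM (log2 1.27, edgeR adjusted p = 0.232). In MAVS, an AluJr copy near the end of the transcript (chr20:3875133-3875432) went from 5.98 ± 1.55 to 4.20 ± 0.440 CPM (-0.51, edgeR adjusted p = 0.305) and an AluSx4 copy (chr20:3868715-3868895) from 1.59 ± 0.503 to 0.987 ± 0.284 CPM (-0.68, edgeR adjusted p = 0.444). The most abundant copy of MAVS was an L1ME3A fragment (chr20:3873829-3874352) with 14.5 ± 1.30 and 14.2 ± 0.787 CPM. That of EIF2AK2 was an L1MC5a fragment (chr2:37101195-37101980) with 5.04 ± 0.402 and 6.73 ± 0.891 CPM, and that of TRIM25 an L1MC5 fragment (chr17:56888502-56888688) with 5.68 ± 0.285 and 5.74 ± 0.889 CPM (SD, n = 3 for each mean). IRF3 followed with an AluSx3 copy (chr19:49661579-49661878) at 0.766 ± 0.0348 and 0.802 ± 0.352 CPM, and in the other 6 members no copy reached 30 counts.

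**Figure D5:**
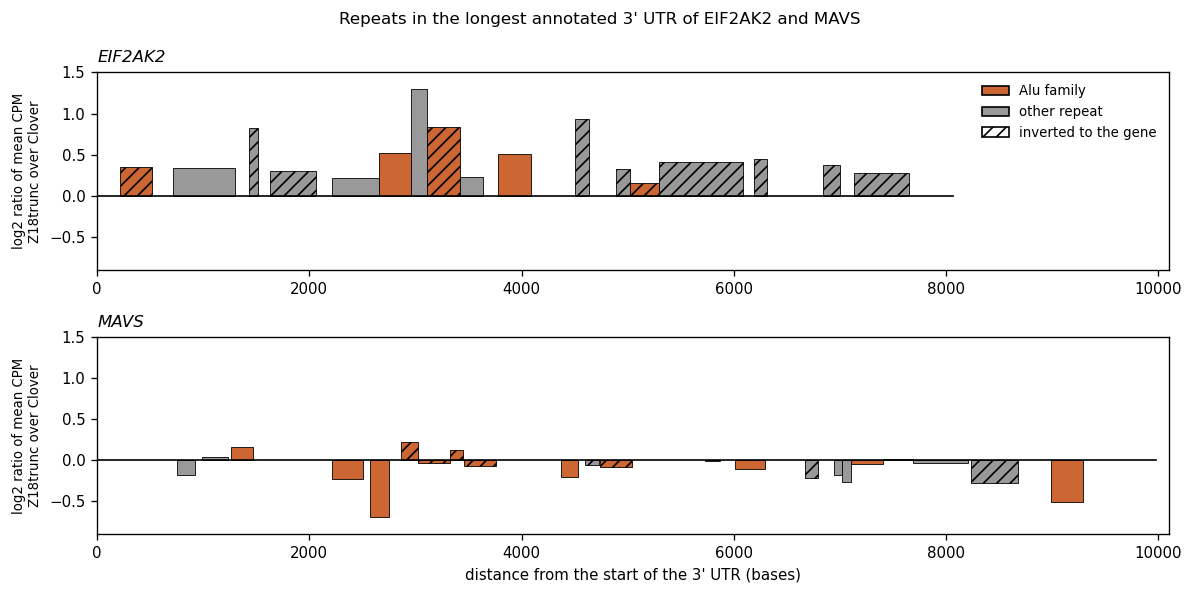
Repeat copies along the longest annotated 3′ UTR segment of EIF2AK2 and MAVS. Each bar spans 1 copy, its height is the log2 ratio of the mean CPM in Z18trunc over that in Clover, orange marks the Alu family and hatching marks copies inverted to the gene. All 17 bars of EIF2AK2 point up, and 17 of 22 of MAVS point down.

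Repeats in introns, which spliced mRNA does not hold, were sparse in these polyadenylated libraries. The Clover means ran from 0.346 CPM for IFIH1 to 2.29 CPM for EIF2AK2, where a count of 0 allows up to 0.134 to 0.165 CPM in a library. The counts sufficed for a fit in 8 members, of which 0 were called, beside 11 of 8700 genes (0.126%). At an unadjusted p under 0.05 in edgeR 0 members were higher, against 13.8% of genes. The log2 differences ranged from -0.36 for TBK1 to 0.73 for IFIH1, with the median gene at 0.30 and the smallest edgeR adjusted p among members at 0.424 for IRF3. IFIH1 was 0.267, 0.261 and 0.509 CPM in Clover and 0.267, 0.768 and 0.714 CPM in Z18trunc, and its groups overlapped, as did those of every other member. Fragments from introns on the opposite strand of the members were rarer still, with 20 in RIGI over all 6 libraries and fewer in each of the others.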

How the data were processed

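SW480 RNA was sequenced by the authors as stranded, paired-end, polyadenylated libraries, trimmed with cutadapt 4.6 (per the labels) and run through SQuIRE on hg38. The deposited gene tables give TPM and FPKM and a coverage signal per base for each gene, which the authors computed without giving counts per gene. The authors' repeat tables give uniquely mapped counts, and estimated counts after multiply mapped fragments were shared among copies. How a fragment crossing adjoining copies was counted is not given in the sources used here. Groups came from the sample titles. TPM was summed by symbol and tested as log2(TPM + 1) with limma 3.58.1 in R 4.3.3 over genes with a mean of at least 1 TPM. Estimated counts of the LTR, LINE, SINE and DNA classes were rounded and entered into edgeR 4.0.16 (quasi-likelihood) where at least 30 counts were present, with aligned fragments as library size and no further scaling. The Benjamini-Hochberg adjustment ran over all features tested, with calls at 0.05. Fits were checked on simulated data. The members and all lists were chosen with earlier results of these data known. Named genes were the 10 members, ZC3H18 and, in each list, genes that passed or else the 2 largest differences, of which 1 is not reported here. Values of IFIT3 and TICAM1 and the genes listed at 0 were added after their values were seen. Named repeat copies were those with an unadjusted p under 0.05 and the most abundant ones in MAVS, EIF2AK2, TRIM25 and IRF3. Gene coordinates are those of the deposited tables, exons and UTRs those of GENCODE 44, and starts of copies were converted to 1-based positions. Intervals are 95% intervals of the fit, and limits from a count of 0 (3 counts) cover counting error only. Replicate numbers did not pair the libraries: same-numbered deviations from the group means correlated at -0.04 to 0.02. Replicates differed by more than counting noise (chi-square per degree of freedom 1.65 to 1.98). Alternatives were another pseudocount, other filters, quantile normalization, median scaling, FPKM, an intensity trend, TMM scaling, DESeq2 1.42.0, uniquely mapped counts, a replicate block and leaving out each library. The exon sums of repeats with their alternatives, the ratio of EIF2AK2 over MAVS and the counts without overlap after leaving out a library were added after the data were seen.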

Additional observations from a re-analysis of the deposited data

How the results depend on the processing

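In no alternative was a member called by limma on TPM, and the adjusted p of members was at least 0.054 throughout. The directions of the 8 members held in 104 of 106 refits, the exceptions being MAVS after quantile normalization (-0.013) and median scaling (-0.026). Over all genes, limma called 1 gene with log2(TPM + 0.1), without the filter, after quantile normalization or with the replicate block. It called 60 with an intensity trend, 474 of 9973 at a mean of at least 5 TPM, and 1 to 4 with a library left out. Counts per gene of fragments on intronic repeats fell from 11 calls to 1 with TMM scaling, 0 with DESeq2 and 0 with the replicate block, and were 0 to 37 with a library left out. Exonic repeats gave 14 calls with TMM scaling, 40 with DESeq2 and 6 to 68 with a library left out. For EIF2AK2 the exonic call held with the replicate block (0.39, edgeR adjusted p = 0.0128).

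Intronic repeat differences turned sign for MAVS with TMM scaling (-0.00013) and over left-out libraries (-0.083 to 0.49), for EIF2AK2 with TMM scaling (-0.13) and DESeq2 (-0.12), and for ADAR over left-out libraries (-0.38 to 0.15). Exonic ones did so for RIGI with TMM scaling (-0.11), DESeq2 (-0.076) and left-out libraries (-0.33 to 0.57), for TRIM25 likewise (-0.027, -0.032 and -0.013 to 0.18), and for IRF3 over left-out libraries (-0.16 to 0.33). All of these differences were short of the threshold in every refit that gave an adjusted p. The cause of these changes was not tested. As settings, TMM scaling and DESeq2 remove a shift shared by most genes, and leaving out a library leaves fewer samples. Differences in the log2 ratios kept their direction with any library left out. DHX58 and TLR3 were fitted only without the filter, and 3 libraries per group and few fragments limit what can be seen for RIGI, TLR3 and DHX58.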
